A study of Mus musculus with 10 samples.

Results

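The genes examined here were Tnf, Il6 and Il10, which encode secreted cytokines, Il10ra, which encodes the ligand-binding chain of the IL-10 receptor, and 6 genes of NF-kB feedback, Nfkbia, Nfkbiz, Tnfaip3, Nfkb1, Nfkb2 and Relb. They were chosen by name, with earlier results of these data known. They are 10 of the 53715 genes counted in microglia purified from the midbrain (Mdb) and the striatum (Str) of healthy mice.

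NF-kB is a family of transcription factors that is held in the cytoplasm of resting cells by inhibitors of the IkB family. When a receptor for TNF, for interleukin-1 or for a microbial product is engaged, the inhibitor is degraded and the factor enters the nucleus, where it drives cytokine genes such as Tnf and Il6 together with the genes of its own brakes, among them Nfkbia and Tnfaip3. Microglia, the resident macrophages of the brain, are a source of TNF, and IL-10, acting through its receptor and STAT3, restrains inflammatory genes in macrophages.

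The cells came from untreated C57BL/6 mice aged 3 months (C57BL/6 J in the study's methods), perfused with cold buffer, and were isolated after papain digestion on a Percoll gradient with CD11b magnetic beads, which retain any CD11b-bearing myeloid cell. The study checked the purity by flow cytometry. It reported that nearly all cells in the positive fraction had the microglial profile (CD11b with low CD45), with a few CD11b cells high in CD45. The poly-A RNA of the cells was sequenced in bulk with MARS-seq, a protocol that reads the 3′ ends of transcripts. The pilot cohort (Exp 1 of the study) had 2 Mdb and 2 Str libraries, and the second cohort (Exp 2) was compared with 2 Mdb and 2 Str libraries, numbered 1 and 3 in each region. No mouse carried a transgene or received a treatment according to the labels, so the 4 groups differed in region and experiment. The remaining 2 libraries of the second cohort have a title that names one region and a file name that names the other, and they entered no comparison. The study drew on 2 mice in Exp 1 and 3 in Exp 2, so libraries of both regions share mice, but the labels do not say which. The fits therefore treat the libraries as independent, and the p-values measure the spread between them.

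The total count per assigned library ranged from 575709, in Str library 3 of the second cohort, to 8463782, in Str library 2 of the pilot. A count of 3, taken as the floor of detection, corresponded to between 0.354 and 5.21 CPM. Levels are given as CPM (counts of a gene relative to the total of its library, the usual per-million unit), scaled by the TMM factors of the 8 assigned libraries, and a difference is the log2 fold change of Mdb over Str. Each of the 10 microglial markers examined was detected in every library, and their summed level was 11651 to 15003 CPM in the Mdb libraries and 16626 to 22186 CPM in the Str libraries.

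The sequence just before the start of 4 of these genes is given because NF-kB is known to act on such regions, and because it lets Tnf, Nfkbia and Nfkb2, whose mean level was higher in Mdb in both cohorts, be read beside Il6, whose mean level was not. Each run is the 150 bases before the annotated start on the strand of the gene, from RefSeq on GRCm38.p6, and capitals mark every match to the NF-kB consensus on either strand. These windows lie at chr17:35202008-35202157 on the minus strand for Tnf, chr5:30012964-30013113 on the plus strand for Il6, chr12:55492648-55492797 on the minus strand for Nfkbia and chr19:46304587-46304736 on the plus strand for Nfkb2.
Tnf: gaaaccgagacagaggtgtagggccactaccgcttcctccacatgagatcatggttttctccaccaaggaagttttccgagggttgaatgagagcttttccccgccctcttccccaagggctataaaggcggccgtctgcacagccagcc
Il6: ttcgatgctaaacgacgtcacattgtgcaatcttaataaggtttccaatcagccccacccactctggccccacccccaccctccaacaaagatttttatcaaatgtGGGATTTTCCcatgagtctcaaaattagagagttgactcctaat
Nfkbia: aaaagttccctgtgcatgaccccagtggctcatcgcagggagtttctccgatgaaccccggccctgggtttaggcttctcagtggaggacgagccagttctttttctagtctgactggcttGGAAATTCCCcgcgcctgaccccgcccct
Nfkb2: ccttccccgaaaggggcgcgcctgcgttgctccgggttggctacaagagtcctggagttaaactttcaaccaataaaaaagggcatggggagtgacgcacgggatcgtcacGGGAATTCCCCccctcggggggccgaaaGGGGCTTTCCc

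The window of Il6 held 1 match, GGGATTTTCC, from 44 to 35 bases before the start. That of Nfkbia held 1 match, read on the opposite strand as GGGAATTTCC, from 29 to 20 bases before the start. Nfkb2 had matches at 3 positions, a palindromic GGGAATTCCC that began 39 bases before the start, GGGGAATTCC on the opposite strand shifted from it by a single base, and GGGGCTTTCC that began 11 bases before the start. The letters of the consensus were not found in the window of Tnf, and bases further from the start were not searched for any gene. Of 32851 promoter windows of the same length, 4.60% held a match. A match describes the letters only, and no binding was measured here. Of the 10 genes, 5 had an entry in the promoter table. Tnfaip3, whose window held matches at 2 positions, is not printed, because its RefSeq start is not the start of the counted gene. Il10, Il10ra, Nfkbiz, Nfkb1 and Relb had no entry.

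The question put to the data was how the resting level of these genes in microglia differs between midbrain and striatum. In the second cohort, Tnf, Nfkbiz and Nfkbia were higher in the midbrain, by 2.60-fold, 2.21-fold and 1.80-fold, at the study's cutoff of an unadjusted p under 0.01 (limma). Il10 also passed this cutoff, but it entered the fit through its Mdb libraries alone, so its call partly follows from the filter on low counts and is given as a description. With Il10, 4 of 10 genes were called, all higher, where 3.47% of the 13486 genes tested were called, 2.88% higher and 0.593% lower. In the pilot cohort the same cutoff called 0 of 10, with 2.64% of 14972 genes called (2.09% higher and 0.548% lower), while 2 of the 10, Nfkb2 and Relb, had an unadjusted p under 0.05 (10.9% of all genes). In the fit of limma over both cohorts, 0 of 10 had an adjusted p under 0.05, which 1.06% of 14053 genes had. In the same fit, 8 of the 10 had an unadjusted p under 0.05, which 14.6% of all genes had. Of these 8, 7 were higher in Mdb and 1, Nfkb1, was higher in Str, where 1314 of all genes were higher and 732 lower. The median log2 difference of the 10 genes in that fit was 0.64, and that of all genes tested was 0.044. Because the 10 genes were chosen with earlier results of these data known, these shares and medians are given as descriptions. All 10 genes passed the filter on low counts in each fit. In bulk libraries, more cells that express a gene and more RNA of it per cell cannot be told apart.

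**Figure D1:**
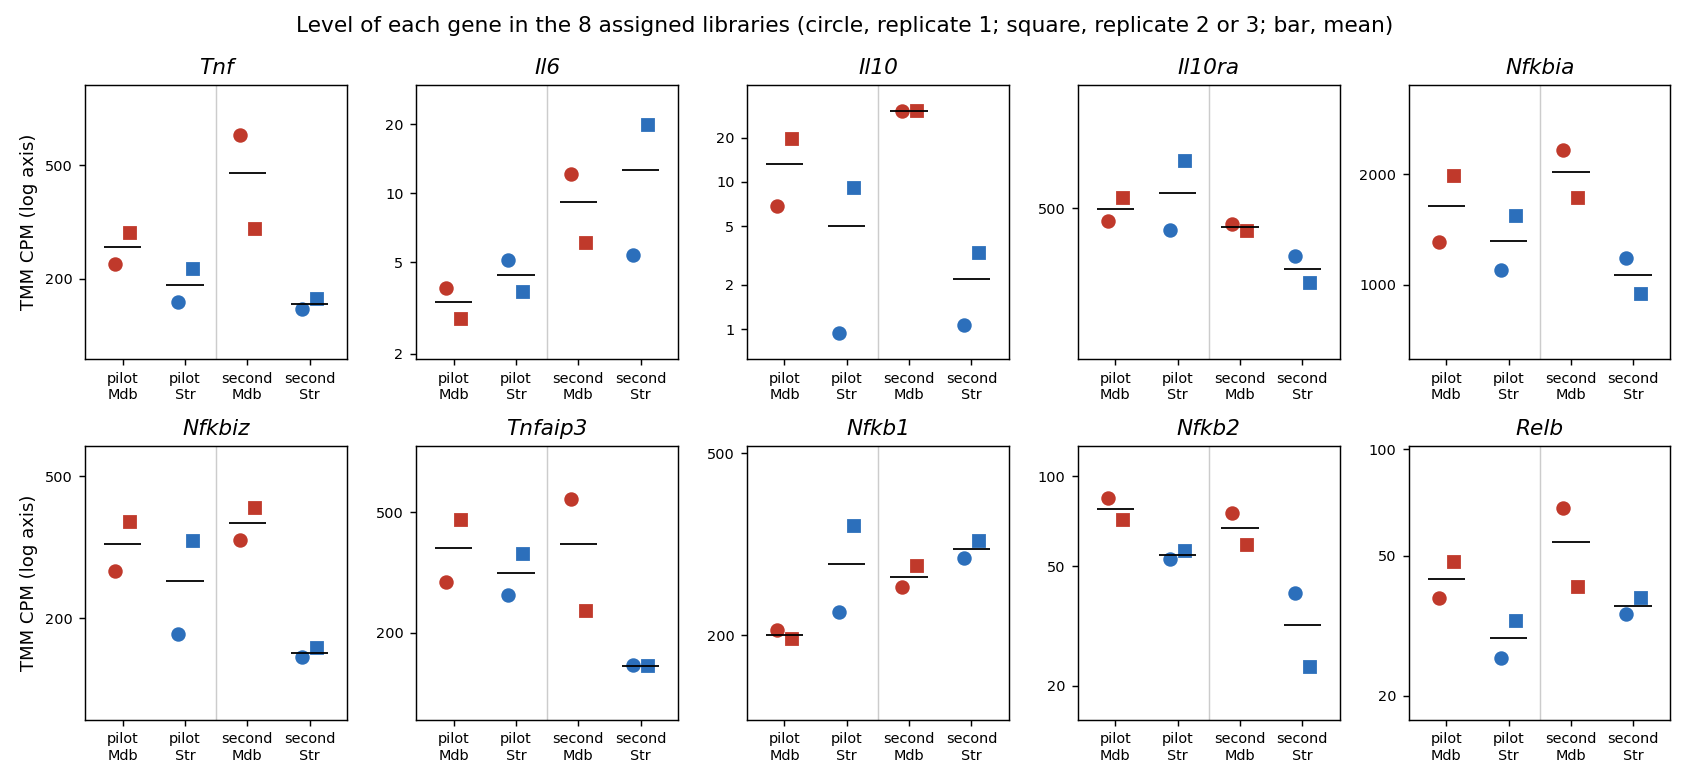
Level of each of the 10 genes in the 8 assigned libraries, as TMM-scaled CPM on a log axis, with Mdb in red and Str in blue, replicate 1 as a circle, replicate 2 or 3 as a square, and the group mean as a bar. Tnf, Nfkb2 and Relb lie above in both Mdb groups, Nfkb1 lies below in both, and Il10 spans from 0.943 to 30.4 CPM.

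**Figure D2:**
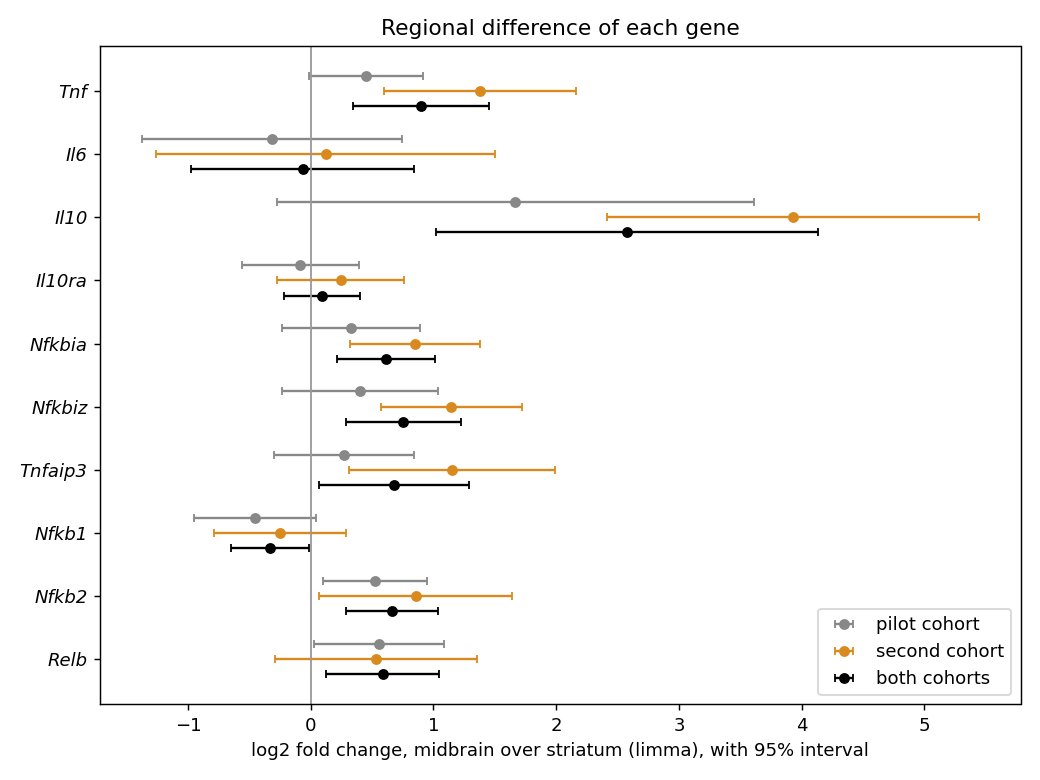
Log2 fold change of Mdb over Str (x axis) with its 95% interval from limma for each gene in the pilot cohort (grey), the second cohort (orange) and both (black). The intervals of Tnf, Il10, Nfkbia, Nfkbiz, Tnfaip3 and Nfkb2 in the second cohort lie above 0, and those of Il10ra and Il6 cross 0 in each fit.

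Tnf (chromosome 17, 35199381 to 35202007, minus strand) encodes the cytokine whose receptors start the canonical NF-kB pathway. Its level in the pilot cohort was 225 and 290 CPM in Mdb and 165 and 216 CPM in Str. In the second cohort it was 637 and 300 CPM in Mdb and 157 and 170 CPM in Str. Every Mdb library lay above every Str library of its cohort, by as little as 1.04-fold between the closest pair in the pilot, and the Mdb libraries of the second cohort differed 2.13-fold from each other. The log2 difference was 0.45 in the pilot (95% interval -0.014 to 0.92, adjusted p = 0.464) and 1.38 in the second cohort (0.59 to 2.16, adjusted p = 0.172, limma). Over both cohorts it was 0.90 (SE 0.25, adjusted p = 0.122), higher in the Mdb libraries of 2 of 2 cohorts. An exact permutation test of its CPM, two-sided with labels exchanged within cohorts, gave p = 0.0556, the smallest that its 36 labelings allow.

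Il6 (chromosome 5, 30013114 to 30019981, plus strand), another NF-kB target and a cytokine that signals through STAT3, had low counts, from 12 to 57 per library. The libraries held 23 and 16 counts of Il6 in pilot Mdb, 27 and 30 in pilot Str, 57 and 26 in second Mdb and 15 and 12 in second Str. Its levels were 3.88 and 2.84 CPM in pilot Mdb, 5.09 and 3.71 CPM in pilot Str, 12.2 and 6.07 CPM in second Mdb and 5.38 and 19.8 CPM in second Str. The regions overlapped in both cohorts, and the highest value came from 12 counts in the shallowest library. On the summed counts, the ratio of Mdb to Str was 0.791 in the pilot (95% interval 0.513 to 1.21) and 1.16 in the second cohort (0.746 to 1.87), where the exact Poisson intervals cover counting error only. The fit over both cohorts put the log2 difference at -0.067, with an interval from -0.98 to 0.84, so that these libraries did not resolve a difference within that range. Its replicates in the second cohort differed 2.00-fold in Mdb and 3.68-fold in Str.

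Il10 (chromosome 1, 131019845 to 131024974, plus strand), the cytokine that restrains macrophage activation, had the widest range of the 10 genes. Mdb libraries held 41 and 111 counts in the pilot and 141 and 130 in the second cohort, and Str libraries held 5 and 73 counts in the pilot and 3 and 2 in the second cohort. As levels these were 6.91 and 19.7 CPM in pilot Mdb, 0.943 and 9.03 CPM in pilot Str, 30.1 and 30.4 CPM in second Mdb and 1.08 and 3.30 CPM in second Str. In the second cohort the regions stood apart, with Str at or below the floor of detection. In the pilot they overlapped, and the Str libraries differed 9.57-fold from each other.

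The fitted log2 difference of Il10 was 3.93 in the second cohort (2.41 to 5.44, adjusted p = 0.0437, limma). The adjusted p was 0.125 without the filter, and with the counts thinned to the smallest library the log2 difference was 2.28 and its call was lost (adjusted p = 0.516). Since the Str counts there were so low, the ratio of summed counts is the plainer value, 271 against 5 counts or 20.5-fold after scaling, with a counting interval from 8.69 to 63.7. In the pilot the corresponding ratio was 2.25, from 152 against 78 counts (1.70 to 3.00), and the fitted log2 difference was 1.67 (-0.28 to 3.61, adjusted p = 0.502). Over both cohorts the log2 difference was 2.58 (SE 0.71, adjusted p = 0.116), and the exact permutation test gave p = 0.111.

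Il10ra (chromosome 9, 45253837 to 45269149, minus strand), which binds that cytokine, varied little. It was at 467 and 530 CPM in pilot Mdb, 446 and 642 CPM in pilot Str, 460 and 444 CPM in second Mdb and 388 and 338 CPM in second Str. The regions overlapped in the pilot, and in the second cohort the Mdb libraries were 1.14-fold to 1.36-fold above the Str libraries. The log2 difference over both cohorts was 0.092, and its interval from -0.22 to 0.40 reached 1.32-fold in favour of the midbrain at its upper end (adjusted p = 0.802).

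The inhibitors came next. Nfkbia (chromosome 12, 55489410 to 55492647, minus strand) encodes IkB-alpha, which binds NF-kB and takes it out of the nucleus. It was the most abundant of the 10 genes, at 1311 and 1975 CPM in pilot Mdb, 1094 and 1539 CPM in pilot Str, 2334 and 1725 CPM in second Mdb and 1179 and 941 CPM in second Str. The regions overlapped in the pilot and were apart in the second cohort, by 1.46-fold between the closest libraries. The log2 difference was 0.33 in the pilot (-0.23 to 0.89, adjusted p = 0.619), 0.85 in the second cohort (0.32 to 1.38, adjusted p = 0.212) and 0.61 over both (SE 0.18, adjusted p = 0.144, limma).

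Nfkbiz (chromosome 16, 55811375 to 55838899, minus strand) encodes IkB-zeta, a nuclear member of the family that is itself induced by NF-kB and modulates its targets. Its libraries stood at 272 and 373 CPM in pilot Mdb and 181 and 329 CPM in pilot Str, which overlapped. In the second cohort they were at 332 and 406 CPM in Mdb and 156 and 165 CPM in Str, where the closest pair differed 2.02-fold. The log2 difference was 0.40 in the pilot (-0.23 to 1.04, adjusted p = 0.598), 1.15 in the second cohort (0.57 to 1.72, adjusted p = 0.110) and 0.76 over both (SE 0.21, adjusted p = 0.122, limma).

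Tnfaip3 (chromosome 10, 19000910 to 19015657, minus strand) encodes a ubiquitin-editing enzyme that shuts off signalling upstream of the IkB kinase. It was at 293 and 470 CPM in pilot Mdb, 267 and 364 CPM in pilot Str, 553 and 235 CPM in second Mdb and 157 and 155 CPM in second Str. The regions overlapped in the pilot, and the Mdb libraries of the second cohort differed 2.35-fold. With that spread the log2 difference of 1.15 in the second cohort (0.32 to 1.99, adjusted p = 0.299, limma) was as large as that of Nfkbiz and missed the cutoff. It passed the cutoff with edgeR (1.27), with DESeq2 (1.28) and with the replicate number as a block. Of all genes, 538, 444 and 988 were called in these fits, in that order. The log2 difference of Tnfaip3 was 0.27 in the pilot (-0.30 to 0.84, adjusted p = 0.696) and 0.68 over both (SE 0.28, adjusted p = 0.287).

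Of the DNA-binding subunits, Nfkb1 and Nfkb2 encode precursors that are processed into subunits of the canonical and the non-canonical pathway, and Relb encodes the usual partner of the Nfkb2 product. Nfkb1 (chromosome 3, 135584655 to 135691547, minus strand) was at 205 and 196 CPM in pilot Mdb, 225 and 347 CPM in pilot Str, 255 and 283 CPM in second Mdb and 295 and 321 CPM in second Str. Every Str library lay above the Mdb libraries of its cohort. The log2 difference was -0.46 in the pilot (-0.95 to 0.039, adjusted p = 0.479), -0.25 in the second cohort (-0.79 to 0.29, adjusted p = 0.765) and -0.33 over both (SE 0.15, adjusted p = 0.320, limma).

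Nfkb2 (chromosome 19, 46304737 to 46312090, plus strand) was at 84.3 and 71.7 CPM in pilot Mdb and 52.8 and 56.4 CPM in pilot Str. In the second cohort it was at 75.2 and 59.1 CPM in Mdb and 40.9 and 23.1 CPM in Str, the last from 14 counts. All Mdb libraries lay above all Str libraries. The log2 difference was 0.52 in the pilot (0.097 to 0.95, adjusted p = 0.411), 0.85 in the second cohort (0.068 to 1.64, adjusted p = 0.441) and 0.66 over both (SE 0.17, adjusted p = 0.0986, limma), the smallest p of the 10 genes in that fit. Reads were counted without strand, and 4 exon bases of Nfkb2 overlap Psd on the opposite strand.

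Relb (chromosome 7, 19606217 to 19629438, minus strand) was at 37.9 and 48.1 CPM in pilot Mdb, 25.7 and 32.5 CPM in pilot Str, 68.3 and 40.6 CPM in second Mdb and 34.1 and 37.9 CPM in second Str. The regions did not overlap within a cohort, with the closest libraries of the second cohort 1.07-fold apart. The log2 difference was 0.56 in the pilot (0.029 to 1.08, adjusted p = 0.445), 0.53 in the second cohort (-0.29 to 1.35, adjusted p = 0.656) and 0.59 over both (SE 0.21, adjusted p = 0.223, limma).

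Counted over the 10 genes, Tnf, Nfkb2 and Relb had every Mdb library above every Str library in both cohorts, as 8.28% of all genes did, and Nfkb1 had the reverse order in both, as 6.04% did. The exact permutation test gave Nfkb1, Nfkb2 and Relb the same p of 0.0556 as Tnf, which is the smallest it can give and does not reach 0.05. Il10, Il10ra, Nfkbia, Nfkbiz and Tnfaip3 were apart in the second cohort, with Mdb above, and overlapped in the pilot, as did 14% of all genes. The exact permutation test gave p = 0.722 for Il10ra and p = 0.111 for each of the others of these 5.

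Single libraries decided several of these calls. Without Str library 2 of the pilot, 6 of the 10 genes were called higher in Mdb in the pilot, namely Tnf, Il10, Nfkbia, Nfkbiz, Tnfaip3 and Relb, in place of 0, where 4.22% of all genes were called in that fit. Leaving out pilot Str library 1 called 1 of the 10 genes, Nfkb1 (-0.75 on the log2 scale), which lies below the 16.8% of all genes called there. The log2 difference of Il10 in the pilot was 2.48 without Mdb library 1, where it was called (0.749% of all genes were), 0.97 without Mdb library 2, 0.39 without Str library 1 and 3.50 without Str library 2. In the second cohort, without Str library 1 only Il10 of the 4 genes stayed called (2.78, with 6.13% of all genes called), while the log2 differences were 1.26 for Tnf, 0.99 for Nfkbia and 1.05 for Nfkbiz. Without Str library 3 only Il10 (4.56) and Nfkbiz (1.20) stayed called (2.91% of all genes), with 1.44 for Tnf and 0.73 for Nfkbia. Without Mdb library 3 there were 5 calls, Tnfaip3 (1.82) and Nfkb2 (1.08) joining Tnf, Nfkbia and Nfkbiz (10.1% of all genes), and without Mdb library 1 there were 3, Tnf, Nfkbia and Nfkbiz (3.24%). Leaving out either Mdb library took Il10 below the filter on low counts. Without Str library 2 of the pilot, and without either Str library of the second cohort, Il10 passed that filter through its Mdb libraries alone. Its calls there partly follow from the filter and are given as a description. In these fits the lone library of a region was assumed to vary like the others.

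**Figure D3:**
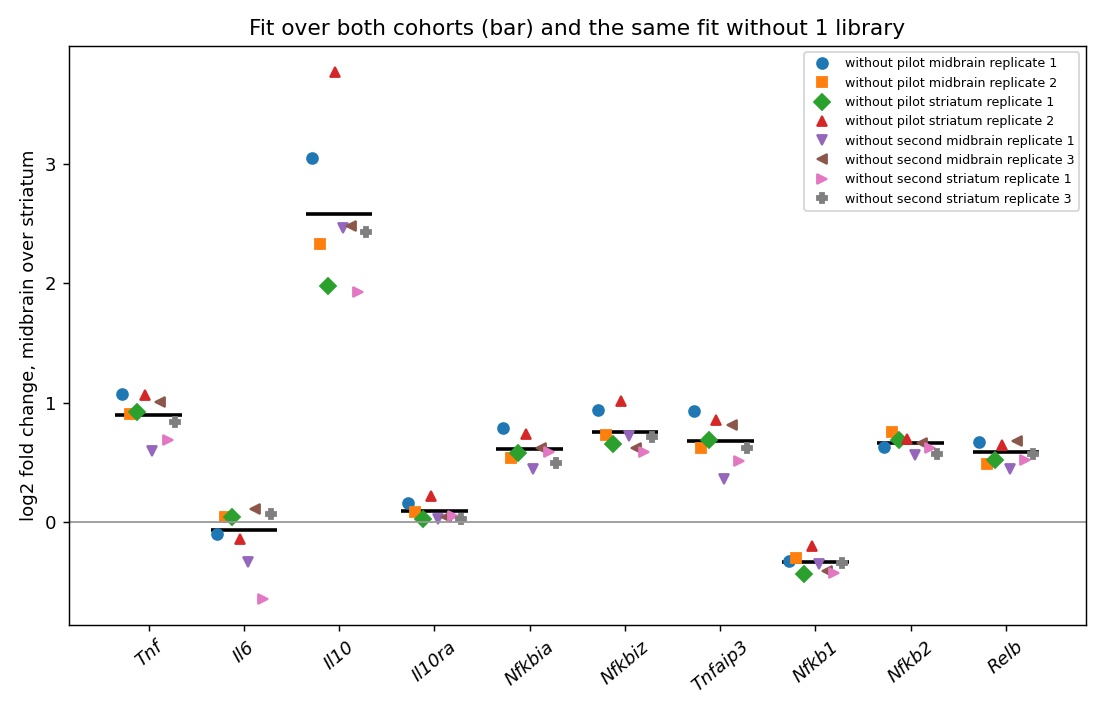
Log2 fold change of Mdb over Str in the fit over both cohorts (black bar) and in the same fit without each of the 8 libraries (symbols), by gene. Il10 ranges from 1.92 to 3.76, Tnf from 0.59 to 1.07 and Nfkb1 from -0.43 to -0.20, and Il6 lies on both sides of 0.

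The fit over both cohorts kept its direction for 9 of the 10 genes without any single library, Il6 being the exception (-0.64 to 0.11). Without pilot Str library 2, Il10 (3.76) and Nfkbiz (1.01) passed an adjusted p under 0.05, with adjusted p = 0.0184 and 0.0132 (limma), where 1.43% of all genes did. Without that library, Il10 passed the filter on low counts through its Mdb libraries alone. Its call there partly follows from the filter and is given as a description. With all 8 libraries, the count of the 10 genes called over both cohorts also differed between tools, from 0 with edgeR to 3 with DESeq2 (Tnf, Nfkbiz and Nfkb2). Of all genes, DESeq2 called 554 and limma 149.

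The cohorts were also set against each other. The test of whether the regional difference itself changed between cohorts (an interaction term in limma) called 0 of the 10 genes and 0 of 14053 genes in all, and 5.49% of all genes and none of the 10 had an unadjusted p under 0.05. Tnf had the smallest p of the 10, with a difference of 0.91 on the log2 scale between the cohorts (-0.11 to 1.92, adjusted p = 0.860). The interval for Il10 ran from -0.88 to 5.21, so the size of its change between cohorts was not resolved. Between the cohorts as such, with region as a covariate, 0 of the 10 genes had an adjusted p under 0.05, which 10.5% of all genes had (4.71% higher in the second cohort and 5.82% higher in the pilot). At an unadjusted p under 0.05 (29.1% of all genes), Il6 had a log2 difference of 1.16 of the second over the pilot cohort (adjusted p = 0.0940) and Il10ra one of -0.31 (adjusted p = 0.164, limma). Scaling by library size alone moved the median of all genes in this comparison from -0.022 to -0.13 on the log2 scale, and 462 of the 1681 genes then called were higher in the second cohort, against 662 of 1480 with TMM.

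The genes also differed in how abundant they were. Divided by the exon length of the gene, the median level over the 8 libraries was 885 CPM per kilobase for Nfkbia, 135 for Tnf, 130 for Il10ra, 59.8 for Nfkbiz, 38.8 for Tnfaip3, 22.3 for Nfkb1, 17.6 for Nfkb2, 9.76 for Relb, 6.09 for Il10 and 2.16 for Il6. The ranges of neighbours in this order overlapped for every pair except Nfkbia and Tnf, and Il10ra and Nfkbiz. Because the protocol reads 3′ ends, dividing by length can understate long transcripts such as Nfkb1. Undivided, the median was 220 CPM for Tnf, below the 453 CPM of Il10ra, 300 CPM of Nfkbiz, 280 CPM of Tnfaip3 and 269 CPM of Nfkb1. Across libraries, the coefficient of variation was 97.6% for Il10, 78.5% for Il6 and 58.5% for Tnf, and 19.6% for Il10ra and 20.6% for Nfkb1.

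The wider pathway was described with a list of 59 other genes, from NF-kB subunits and kinases to adaptors, brakes, receptors and textbook targets, of which 57 were tested (Tab3 and Lta were not). This list was also chosen with earlier results of these data known, so its counts and medians are descriptions. In the fit over both cohorts, 2 of them had an adjusted p under 0.05, both higher in the midbrain (0.975% of all genes), and 0 were lower (0.0854%). These were Cxcl2, a chemokine for neutrophils, with a log2 difference of 2.70 (SE 0.55, adjusted p = 0.0420), and Il1b, the cytokine interleukin-1 beta, with 2.33 (SE 0.30, adjusted p = 0.0137, limma). Cxcl2 ranged from 69.2 to 2793 CPM over the 8 libraries, and Il1b from 114 to 2298 CPM. Il1b shares its locus with the antisense gene Il1bos, and the counting did not use strand.

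Of the other genes of the list, those with the smallest p above 0 were Ptgs2, the inducible cyclooxygenase (2.41, adjusted p = 0.0602), Socs3, a STAT3-induced inhibitor of cytokine signalling (0.61, adjusted p = 0.0847), and Tnip3, which binds the product of Tnfaip3 (2.24, adjusted p = 0.0987). Below 0 they were Il6ra, the receptor of interleukin-6 (-0.40, adjusted p = 0.308), Tnfrsf1a, a receptor of TNF (-0.24, adjusted p = 0.406), and Tnfaip8l2 (-0.17, adjusted p = 0.550). Of the 57 genes, 44 had a log2 difference above 0 and 13 below 0, where 54.4% of all genes lay above 0, and their median was 0.19. By role, the 11 textbook targets had a median of 0.59 and held both calls, the 4 IkB family genes had 0.34, the 9 kinases 0.10, the 11 further brakes 0.074 and the 3 TNF ligands and receptors -0.24.

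**Figure D4:**
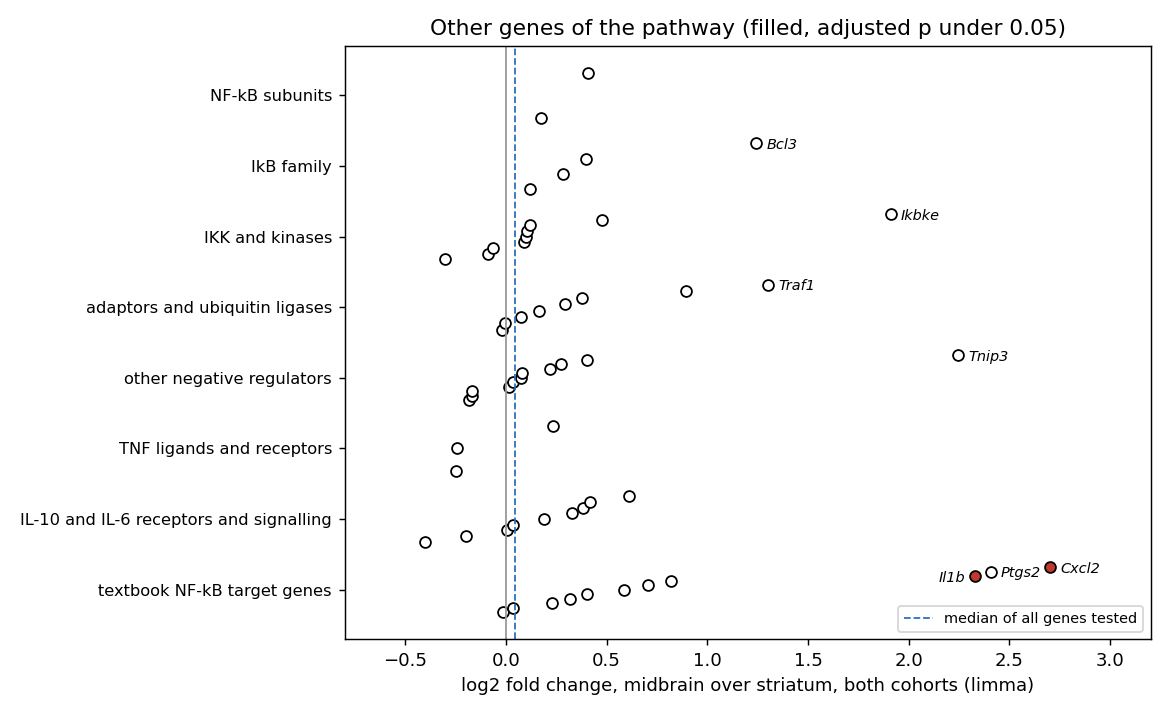
Log2 fold change of Mdb over Str over both cohorts for the 57 tested genes of the pathway list, by role, where filled points have an adjusted p under 0.05 (limma) and the dashed line is the median of all genes tested. Cxcl2 and Il1b are filled at 2.70 and 2.33, and most other genes lie within 0.5 of 0.

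Markers of other cells also differed between the regions. The summed level of 8 border macrophage markers was 1302 to 1581 CPM in pilot Mdb against 523 to 803 in pilot Str, and 1912 to 2449 CPM in second Mdb against 267 to 304 in second Str. Of these markers 8 of 8 had a log2 difference above 0 in the fit over both cohorts and 6 were called higher in Mdb. For 8 monocyte markers the sums were 357 to 423 CPM against 152 to 183 in the pilot, and 790 to 3049 CPM against 153 to 228 in the second cohort (4 called). For 10 neutrophil markers they were 1113 to 1466 CPM against 849 to 939, and 4030 to 6626 CPM against 915 to 970 (5 called). Of the neutrophil markers 9 had a log2 difference above 0 over both cohorts. The other, Csf3r, was at -0.26 and ranged from 346 to 638 CPM over the 8 libraries. Within second Mdb, library 1 held the higher monocyte and neutrophil sums, and library 3 the higher border macrophage sum. Library 1 there also held the higher level of Tnf, Il6, Il10ra, Nfkbia, Tnfaip3, Nfkb2 and Relb. Il10 was equal in both libraries within 1.01-fold, and Nfkbiz and Nfkb1 were higher in library 3. Within pilot Mdb, library 1 held the higher sum of each of these lists and the higher level of Il6, Nfkb1 and Nfkb2. The levels of Tnf, Il10, Il10ra, Nfkbia, Nfkbiz, Tnfaip3 and Relb were higher in pilot Mdb library 2.

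The 10 markers of T and NK cells summed to 80.0 to 97.8 CPM in pilot Mdb against 23.0 to 46.6 in pilot Str, and to 146 to 278 CPM in second Mdb against 8.24 to 49.1 in second Str, with 1 of the 7 tested called. The markers of border macrophages and neutrophils were above 0 in every library, while the monocyte markers Vcan and Ms4a4c and 7 of the 10 T and NK cell markers were at 0 in at least 1 library. Of the markers tested for dendritic cells, B cells, astrocytes, neurons, oligodendrocytes and endothelial cells none was called (limma), and at an unadjusted p under 0.05 there were 4 of 6 for dendritic cells, higher in Mdb, and 1 of 6 each for astrocytes and endothelial cells, higher in Str. Of the 10 microglial markers 10 had a log2 difference below 0 and 2 were called lower in Mdb.

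Immediate early genes, which respond within minutes to handling and to many stimuli, were summed over 14 genes that include heat shock genes. Their sum was 18545 and 21892 CPM in pilot Mdb, 13506 and 23854 CPM in pilot Str, 23175 and 21022 CPM in second Mdb and 10977 and 10165 CPM in second Str. Pilot Str library 2, which had the higher level of each of the 10 genes but Il6 in the pilot Str pair, held the highest sum of all 8 libraries. In the fit over both cohorts 12 of the 14 lay above 0 and 2 were called, Nr4a1 (0.95) and Fosb (1.73), with a median of 0.61 beside the 0.64 of the 10 genes. The part of these other cells and of immediate early genes in the regional differences was not tested.

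**Figure D5:**
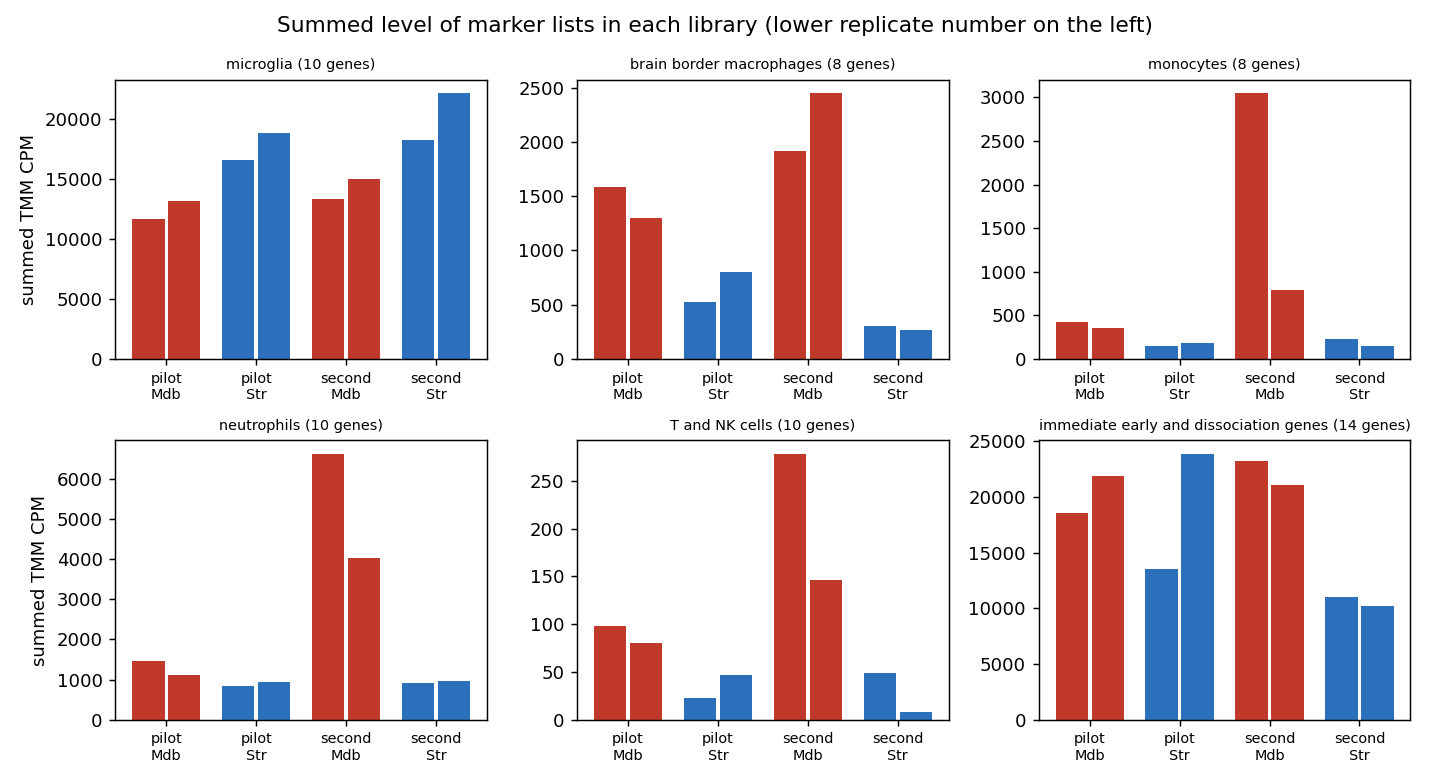
Summed TMM-scaled CPM of 6 marker lists in each of the 8 libraries (bars, Mdb red, Str blue, lower replicate number on the left). The border macrophage, monocyte and neutrophil sums are higher in Mdb in both cohorts, the microglial sum is lower, and the immediate early sum of pilot Str library 2 is the highest of the 8 at 23854 CPM.

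The genes most like Tnf over the 8 libraries, by the root mean square difference of centred log2 levels among 12667 genes, were Klf10 (0.16), Siah2 (0.16) and Ccrl2 (0.16), beside a standard deviation of Tnf itself of 0.62. Those most like Il10 were the chemokine genes Cxcl1 (0.47), Ccl7 (0.49) and Ccl2 (0.64), where Il10 itself had a standard deviation of 1.69. Among the 10 genes, Nfkbia was equally close to Nfkbiz and to Relb (0.27 each) and then to Tnf (0.30), with 75 other genes closer to Tnf than Nfkbia was. These are descriptions over 8 libraries that share the contrast of region and cohort.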

How the data were processed

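Bulk MARS-seq libraries of CD11b-purified microglia were analysed. The authors aligned reads to GRCm38 with STAR 2.5.3a and counted them over exons of Gencode M17 with featureCounts 1.6.0, without strand and without reads assigned to several genes, and deposited raw counts per gene and library. Symbols were matched to 53620 of 53715 genes, 2156 of them without the version of the identifier. The deposited totals are given with the results.

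As in the study's methods, a gene was dropped from a fit if over 50% of its libraries held under 6 counts of it, and counts were scaled with TMM (edgeR 4.0.16) and fitted with voom and limma 3.58.1 in R 4.3.3 for each cohort (unadjusted p under 0.01). The fits over both cohorts, with the cohort as a covariate and a Benjamini-Hochberg adjusted p under 0.05 over all genes, were added here. Replicate libraries differed by more than sampling noise in each group. In simulated counts, the fits recovered 66, 46 and 47 of 100 genes changed 2-fold and 94, 94 and 92 of 100 changed 4-fold for the pilot cohort (14972 genes), the second cohort (13486) and both (14053). Intervals on count ratios are exact Poisson intervals at 95% and, like the floor of 3 counts, cover counting error only.

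The 10 genes, the pathway list and the marker lists were chosen with earlier results of these data known. Of the pathway list, genes with an adjusted p under 0.05 and the 3 with the smallest p in each direction were named, and for Tnf and Il10 the 3 genes closest in pattern with a mean of at least 10 counts. Nr4a1, Fosb and the genes behind small counts were picked once their values were known. The regional comparisons were repeated with DESeq2 1.42.0, edgeR's quasi-likelihood test, library size scaling, no filter, at least 10 counts in every library, a replicate block, thinned counts, sample quality weights, both placements of the 2 unassigned libraries and leaving out each library. The change between cohorts and the difference of cohorts were repeated with edgeR, library size scaling, no filter, the block and each library left out. Figures were drawn with matplotlib 3.10.9.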

Additional observations from a re-analysis of the deposited data

Results flagged for a closer look

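The 2 libraries left out of the comparisons carried signal of all 10 genes. The library titled Mdb 2 (1584013 counts), whose file name gives the striatum, held 266 CPM of Tnf, 4.13 CPM of Il6, 4.13 CPM of Il10 and 445 CPM of Il10ra. Its inhibitors stood at 1919 CPM for Nfkbia, 349 CPM for Nfkbiz and 366 CPM for Tnfaip3, and its subunits at 307 CPM for Nfkb1, 40.7 CPM for Nfkb2 and 49.6 CPM for Relb. The library titled Str 2 (5194739 counts), whose file name gives the midbrain, held 519 CPM of Tnf, 7.16 CPM of Il6, 10.5 CPM of Il10 and 343 CPM of Il10ra. Its inhibitors stood at 1578 CPM for Nfkbia, 388 CPM for Nfkbiz and 225 CPM for Tnfaip3, and its subunits at 213 CPM for Nfkb1, 35.8 CPM for Nfkb2 and 35.4 CPM for Relb. They are listed because they come from libraries outside the comparisons, and their values were not used to settle the region.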

How the results depend on the processing

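The precision was limited by 2 libraries per group and by depth, with Str library 3 of the second cohort at 575709 counts. Of the 10 genes, the pilot fit called 0, and 1 with the replicate block (Il10). All genes called in the pilot were 395, and 401 with the block. The second cohort fit called 4, and 5 with edgeR, DESeq2 and the replicate block (Tnfaip3 added), 3 with thinned counts and with at least 10 counts in every library (Il10 missing), and 1 with the unassigned libraries placed by title (Tnfaip3) or 2 by file name (Tnf and Il10). All genes called in the second cohort were 468, and 538 with edgeR, 444 with DESeq2 and 988 with the replicate block. Under the settings without the unassigned libraries they ranged from 204 to 988. The fit over both cohorts called 0, and 1 without a filter, 2 with the replicate block (Il10 and Nfkbia), 3 with DESeq2, 2 with thinned counts and 4 with sample quality weights. The pathway list held 2 calls, and 1 with edgeR, 6 with the replicate block, 8 with DESeq2, 1 with at least 10 counts in every library, 7 with quality weights, and 0 and 5 with the unassigned libraries by title and by file name. All genes called over both cohorts were 149, and 57 to 554 under the settings without those libraries, the 554 being with DESeq2. With those libraries they were 0 by title and 440 by file name. Leaving out each library gave 0 to 6 of the 10 genes called in the pilot (108 to 2445 of all genes), 1 to 5 in the second cohort (393 to 1240 of all genes), 0 to 2 over both (0 to 238 of all genes) and 0 to 2 between cohorts, and 0 to 6 of the pathway list. The cause of these differences was not tested.

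Signs turned for values that missed the threshold. Il6 in the second cohort was -0.27 with edgeR, -0.016 with the replicate block, -0.39 with DESeq2 and -2.01 with thinned counts, and -1.33 to 0.81 without single libraries. With the unassigned libraries by title Nfkb1 was 0.032 in the second cohort, and by file name Il6 was 0.014 and Il10ra -0.051 over both. The change of the regional difference between cohorts was 0.043 without a filter and 0.071 with the replicate block for Relb, and Nfkbia was -0.049 between cohorts with library size scaling. Without single libraries the pilot values ran from -0.33 to 0.17 for Il10ra, -0.011 to 0.82 for Nfkbiz and -0.059 to 0.63 for Tnfaip3, and Il6 over both from -0.64 to 0.11. The change between cohorts ran from -0.98 to 0.97 for Il6, -0.088 to 0.44 for Nfkb1 and -0.37 to 0.37 for Relb, and the second over pilot difference from -0.13 to 0.18 for Nfkbia and -0.32 to 0.063 for Nfkbiz. The deviations of same-numbered libraries had a correlation over genes of -0.034 in the pilot and 0.077 in the second cohort. With 2 libraries per group this cannot tell whether same-numbered libraries share a mouse. Il10 could not be tested with at least 10 counts in every library, nor Il6 with thinned counts over both cohorts.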
